A study of Homo sapiens with 16 samples.

Results

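Positions named for transfer RNA genes of the nuclear genome showed reverse-transcription stops in all 10 tables of this series, which maps pseudouridine by chemical labelling. A position was taken as nuclear tRNA when it lay off the mitochondrial chromosome and its gene symbol contained the word tRNA. In all, 3455 of 719918 listed positions met this rule, from 389 gene names. Near-identical gene copies give the same sequence, so positions with the same 31-base window were counted once, which left 1236 distinct sequences. The reported base was U in 511 of them, G in 316, A in 226 and C in 183. Each sequence was given a place in the conventional tRNA numbering where possible. Places up to 16, and the D-loop as a region, were taken from the nucleotide number in the gene and not from letters. Results there therefore rest on gene numbering. Later places were read from the sequence's own letters (the anticodon at 34 to 36, the T-loop U at 55). A numbered place was given to 1025 sequences and not to 211. Of the latter, 85 were given only as D-loop, 45 only as variable region, and 81 were unplaced. A base is written with its place, so U55 is the uridine at place 55, while "nucleotide" counts from the start of the gene.

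HEK293T is a human embryonic kidney line and HCT116 a human colorectal carcinoma line, both labelled wild type. HCT116-shDKC1 is HCT116 labelled as knocked down for DKC1, the catalytic subunit of the box H/ACA ribonucleoproteins, which use guide RNAs to direct pseudouridylation. Each group had 2 libraries from polyadenylated RNA, 16 libraries in 8 groups. HEK293T had untreated libraries, libraries treated with CMC, a carbodiimide that reacts with uridine, guanosine and pseudouridine, and libraries treated with CMC and Terminator, an exonuclease that degrades RNA with a 5′ monophosphate. HCT116 had the same 3 kinds, and HCT116-shDKC1 had untreated libraries and libraries with CMC and Terminator. The Terminator libraries also carry the tags AP5 and RE, which the untreated and CMC-only libraries lack, so a difference between them joins CMC, Terminator and those steps. Nothing in the labels says that replicates came from separate cultures, so p-values measure the spread between these libraries, which may be technical. Whether the knockdown line is a clone or a pool is not given in the sources used here. The labels of HCT116 and HCT116-shDKC1 also carry the tag Lacz, which those of HEK293T lack. Its role is not given either.

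Pseudouridine is an isomer of uridine made after transcription, and tRNAs are among the RNAs richest in it. CMC forms an adduct on pseudouridine that survives alkali, and reverse transcriptase halts beside it. In human tRNA, TRUB1 and PUS10 act at place 55 in the T-loop, PUS7 at place 13, PUS1 at place 27 among others, and PUS3 at places 38 and 39. These are stand-alone enzymes that need no guide RNA. Other tRNA modifications block base pairing and halt the enzyme without CMC, among them 1-methylguanosine or 1-methyladenosine at 9, dimethylguanosine at 26, 1-methylguanosine at 37 (1-methylinosine in tRNA-Ala) and 1-methyladenosine at 58. Place 46 of many tRNAs carries 7-methylguanosine, made by METTL1 with WDR4.

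The sequences the results turn on are given 5′ to 3′ as RNA-sense DNA letters in hg38, the build named in the submitters' processing notes, with the reported base in capitals. The first 3 are T-loops and the next pair D-arms, followed by the anticodon arm, the G before place 46, and places with high stops in untreated RNA.
tRNA-Gly-CCC-chr1-135 U55, chr1:16678275-16678303, minus strand: cgggagacccgggtTcaattcccggccac
tRNA-Trp-CCA-2-1 U55, chr17:19508220-19508248, plus strand: agaaggttgcgtgtTcaagtcacgtcggg
tRNA-Leu-TAG-1-1 U55, chr17:8120318-8120346, minus strand: tcggaggcgtgggtTcgaatcccaccgct
tRNA-Glu-TTC-5-1 U13, chr1:161612718-161612744, plus strand: gcgttggtggtgTagtggtgagcacag
tRNA-Gly-CCC-chr1-135 U13, chr1:16678315-16678341, minus strand: gcgttggtggttTagtggtagaattct
tRNA-Val-CAC-1-4 U27, chr5:181173662-181173690, plus strand: tagtggttatcacgTtcgcctcacacgcg
tRNA-Glu-TTC-2-1 U32, chr13:44917953-44917981, minus strand: gttaggattcctggTtttcacccaggcgg
tRNA-Ala-CGC-4-1 U38, chr6:28729337-28729365, plus strand: gcgcgtgcttcgcaTgtacgaggccccgg
tRNA-Ser-TGA-4-1 U39, chr6:27505857-27505885, minus strand: cgatggacttgaaaTccattggggtttcc
tRNA-Pro-AGG-1-1 G45, chr16:3192018-3192046, plus strand: cttaggatgcgagaGgtcccgggttcaaa
tRNA-iMet-CAT-1-1 G45, chr1:153671279-153671307, plus strand: gcccataacccagaGgtcgatggatcgaa
tRNA-Gly-CCC-chr1-137 A58, chr1:16545940-16545968, minus strand: gagacccgggttcaAttcccggccaatgc
tRNA-Ala-CGC-4-1 A37, chr6:28729336-28729364, plus strand: agcgcgtgcttcgcAtgtacgaggccccg
tRNA-Asp-GTC-3-1 U33, chr6:27583482-27583510, minus strand: tgagtgtccccgtcTgtcacgcgggagac

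All of these lie within tRNA genes, at the coordinates the tables give. In each table a position comes with its stop reads and its covering reads in a treated library and an untreated one, and the stop percent is the first divided by the second. The tables hold only positions with at least 5 treated and 1 untreated stop reads and with a treated ratio not below the untreated one. A higher stop percent after treatment within a replicate is therefore a condition of being listed, not a finding, and positions without such stops are not seen. tRNA made up 1.63% of listed positions in both HCT116 tables with Terminator and 1.48% in both HCT116-shDKC1 tables. The share was 0.186% and 0.177% in HEK293T with Terminator, 0.103% and 0.0967% in HEK293T with CMC alone, and 0.0664% and 0.0526% in HCT116 with CMC alone. The first 2 pairs of shares come from tables of whole read numbers and the others from tables of fractional ones. Differences between these 2 kinds may therefore lie in how reads were counted, which was not tested. Of the distinct sequences, 771 were listed for HCT116, 667 for HCT116-shDKC1 and 538 for HEK293T, and 139 occurred in all 3 cell populations. Of the 1236, 460 were in 1 table and 4 in all 10.

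tRNA-Gly gave 188 distinct sequences, tRNA-Leu 182 and tRNA-Glu 154, and the names covered 20 amino acids and 46 anticodons. The most frequent numbered place was 55 with 76 sequences, from 39 anticodons. All 76 were U preceded by U, which is not a finding, because place 55 was itself found from these T-loop letters. Place 58 followed with 74, place 45 with 58, place 37 with 47 and place 39 with 41. The D-loop held 85, of which 49 were U. In all 3 cell populations the most frequent were U55 with 24 sequences, A58 with 17, and G45 and D-loop U with 11 each. Copies of a sequence are not independent: 494 sequences had more than 1 copy, up to 19, and in HCT116 with Terminator the copies of 35.7% and 41.2% of such sequences carried equal stop reads. Distinct windows of related tRNAs can also share reads, as noted below for tRNA-Pro.

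Sequences with at least 20 covering reads in all 4 libraries of a comparison show which places stop the enzyme before and after treatment. Uridines at places of known pseudouridine started low. In HCT116 with Terminator, 22 U55 sequences had a median stop percent of 13.6% (range 1.55 to 34.7) against 2.81% untreated, and both treated libraries lay above both untreated ones in 21. In HEK293T with Terminator, 22 U55 sequences, in part the same as in HCT116, had medians of 15.5% and 4.74%. All 22 were separated in that way, which the listing rule partly fixes. Separation was common among tRNA sequences. With Terminator it held in 102 of the 114 tested below in HCT116 and in 13 of the 15 tested in HEK293T. U13 had medians of 22.4% against 4.37% over 9 sequences in HCT116 and 21.7% against 4.49% over 6 in HEK293T. In HCT116, U39 had 24.3% against 4.15% over 8 sequences, U27 22.2% against 3.20% over 5, and U32 28.1% against 6.38% over 5. Over all 108 U in HCT116 the medians were 16.7% and 5.50%, so U32 started above the untreated one. A low start was not particular to these places. The untreated median was 3.10% for 6 U of the variable region, but 24.2% for 6 U33.

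Purines known for blocking methylations started high. In HCT116, the untreated median was 21% for 4 G9 sequences and 25.0% for 4 G26 sequences, against 33.3% and 34.7% after treatment. The G9 sequences include a mitochondrial-like one, nm-tRNA-Tyr-GTA-chr14-8. A58 had 16.7% untreated and 20.8% treated over 13 sequences in HEK293T, and 9.04% and 12.1% over 13 in HCT116. Separation of all 4 libraries held in 7 of those 13 A58 sequences in HEK293T and 11 in HCT116. G45 was unlike the other purines: 20 sequences in HCT116 had 4.76% untreated and 30.1% treated, with 20 separated. Only 3 G45 sequences reached the coverage in HEK293T, with medians of 12.5% and 21.7%.

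**Figure D1:**
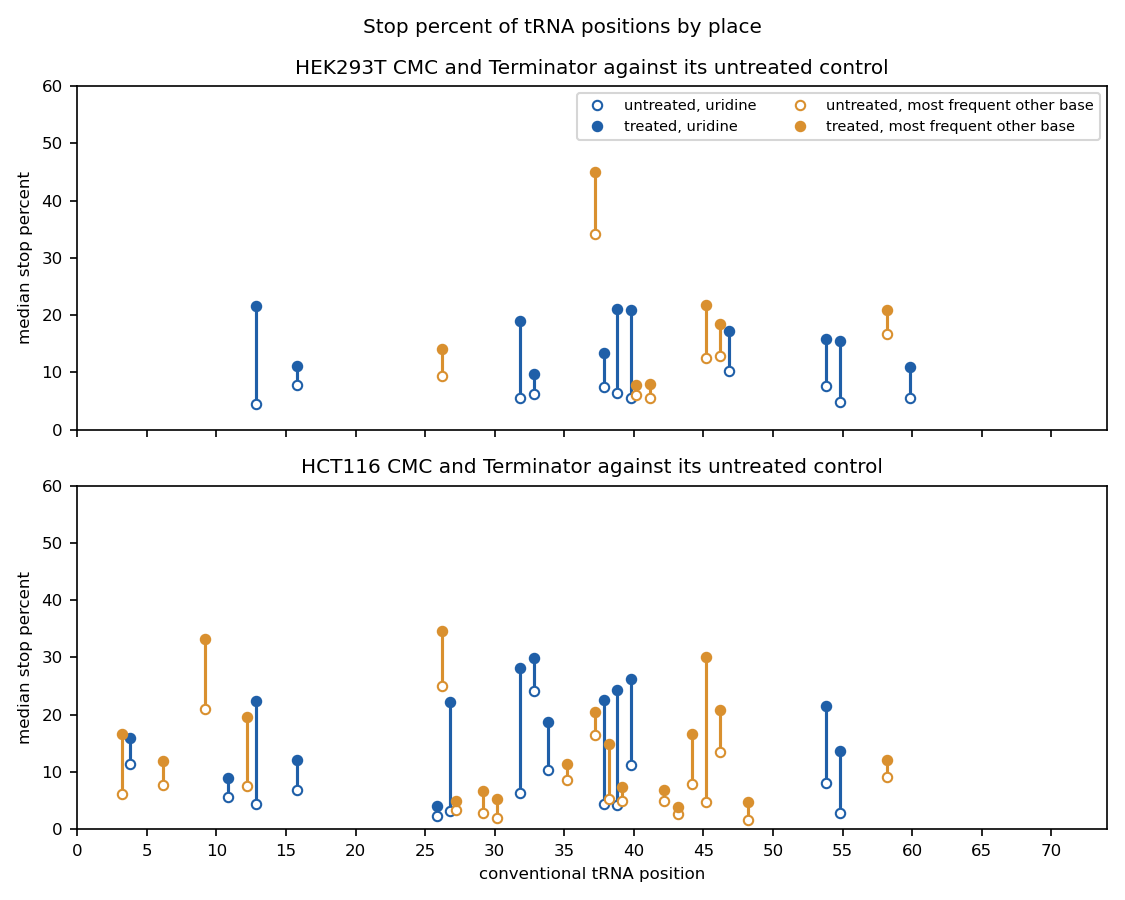
Median stop percent (y axis) by conventional tRNA position (x axis) in the CMC and Terminator tables of HEK293T (top) and HCT116 (bottom), for places with at least 2 sequences of at least 20 covering reads. Open circles are untreated, filled circles treated, blue uridine and orange the most frequent other base; in HCT116 U55 rises from 2.81% to 13.6% while G26 starts at 25.0%.

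The HEK293T tables answer how CMC alone and CMC with Terminator compare on the same cells. There were 15 tRNA sequences, 6 of them U, that were listed in all 4 tables with enough stop reads to test. Treated and untreated stop percents did not overlap in 15 of the 15 with CMC and in 13 with CMC and Terminator. tRNA-Gly-CCC-chr1-135 U55 had stop percents of 3.24% and 4.59% untreated, 29.8% and 18.3% with CMC, and 18.9% and 22.5% with CMC and Terminator. tRNA-Trp-CCA-2-1 U55 had 2.82% and 6.71%, then 30.9% and 14.9%, then 23.7% and 19.2%. Every treated library lay above both untreated ones at these T-loops, and the CMC and Terminator libraries overlapped. tRNA-Glu-TTC-5-1 U55 was lower, with 3.13% and 2.04% untreated, 12.6% and 8.09% with CMC, and 7.48% and 10.9% with Terminator.

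Place 13 is the PUS7 site. tRNA-Gly-CCC-chr1-135 U13 had 3.88% and 2.67% untreated, 10.6% and 7.86% with CMC and 20.9% and 14.8% with Terminator, with no overlap between the 3 groups. tRNA-Glu-TTC-5-1 U13 had 1.82% and 2.38%, 6.75% and 9.58%, and 10.5% and 7.86%, so here the treated groups overlapped. tRNA-Glu-TTC-2-1 U32, in the anticodon loop, had 6.39% and 4.89%, 15.7% and 12.7%, and 15.5% and 17.1%. The places with high untreated stops moved less. tRNA-Ala-CGC-4-1 A37 had 57.9% and 53.4% untreated, 64.8% and 62.4% with CMC, and 65.4% and 65.1% with Terminator. tRNA-Gly-CCC-chr1-137 A58 had 19.6% and 18.2%, 26.3% and 22.5%, and 23.3% and 18.3%, where the last pair overlapped the untreated one.

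**Figure D2:**
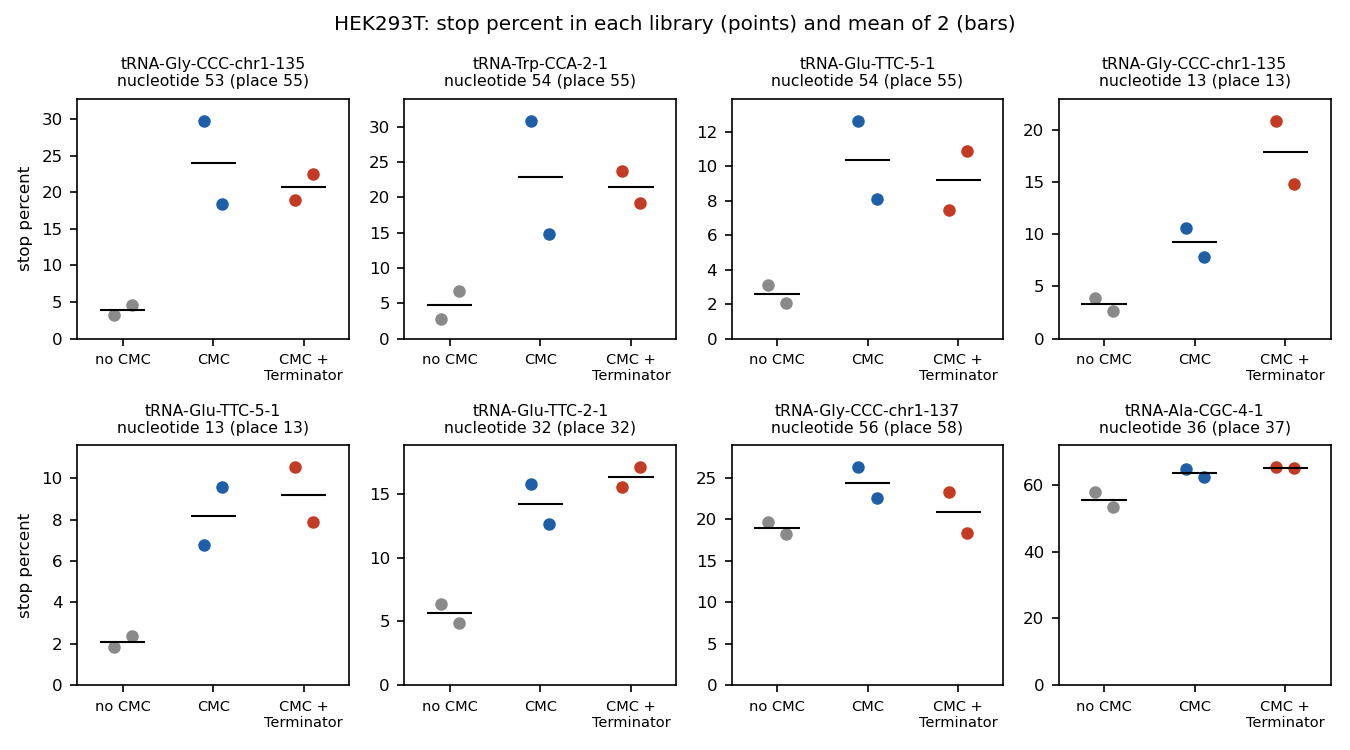
Stop percent (y axis) of 8 tRNA positions in each HEK293T library: untreated, CMC, and CMC with Terminator (2 points each, bar at their mean). The 3 U55 and 2 U13 positions and U32 stay below 7% untreated and rise in both treated groups, whereas A37 of tRNA-Ala-CGC-4-1 is above 50% in all 6 libraries.

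Stop reads per library total were tested with edgeR's quasi-likelihood method over all 14825 positions listed in every HEK293T table. A position was called at a Benjamini-Hochberg adjusted p under 0.05 and at least a 2-fold change. With CMC alone, 0.445% of all positions (1.11% of U) were called higher, and 0 of 15 tRNA sequences were called by edgeR, with 4 at an unadjusted p under 0.05 (TMM called 0.0202% of all positions and 0 tRNA sequences). The largest changes were log2 2.17 (SE 0.37, edgeR adjusted p = 0.0607) for tRNA-Gly-CCC-chr1-135 U55 and 2.12 (SE 0.42, adjusted p = 0.544) for tRNA-Trp-CCA-2-1 U55. Tested against covering reads instead, tRNA-Gly-CCC-chr1-135 U55 was called (edgeR adjusted p = 0.0286), as were 1.4% of all positions.

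With CMC and Terminator, 33.5% of all positions were called higher, 30.7% of U and 35.2% of other bases, and 8 of 15 tRNA sequences were called, 6 of 6 U and 2 of 9 others. The median change was log2 0.82 over all positions, 2.5 over the tRNA U and 0.55 over the other tRNA bases. tRNA-Trp-CCA-2-1 U55 rose by log2 3.01 (SE 0.36, edgeR adjusted p = 1.62e-04), from 3 stop reads in both untreated libraries together to 24, a ratio per library total of 8.65 (95% exact interval 2.63 to 44.9). tRNA-Gly-CCC-chr1-135 rose by 2.68 at U55 (SE 0.34) and 2.40 at U13 (SE 0.22), tRNA-Glu-TTC-5-1 by 2.59 at U13 (SE 0.35) and 1.40 at U55 (SE 0.32), and tRNA-Glu-TTC-2-1 U32 by 1.77 (SE 0.24). The other calls were G26 of tRNA-Ser-TGA-1-1 at 1.31 (SE 0.24, edgeR adjusted p = 0.0346) and A58 of tRNA-Val-TAC-3-1 at 1.05 (SE 0.22, adjusted p = 0.0266). A37 of tRNA-Ala-CGC-4-1 was at 0.72 (SE 0.15, edgeR adjusted p = 0.0678). With TMM scaling, which centres the change over all positions, 2.01% of all positions and 4 tRNA sequences were called, U55 of tRNA-Trp and tRNA-Gly and both U13. Against covering reads 12.3% and 6 were called, all of them U. Both untreated libraries had under 10 stop reads in all 8, so these passed the minimum through the treated libraries, and the untreated libraries are the same in both HEK293T comparisons.

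Terminator with CMC against CMC alone called 23.6% of all positions higher and 2 of 15 tRNA sequences, both at U13. These were tRNA-Gly-CCC-chr1-135 at log2 1.31 (SE 0.19, edgeR adjusted p = 0.00977) and tRNA-Glu-TTC-5-1 at 1.01 (SE 0.27, adjusted p = 0.0188). The median over all positions was 0.68. Neither was called with TMM or against covering reads, where 0.816% and 0.897% of all positions were, nor without CMC replicate 1. At U55 the differences were 0.88 (SE 0.26) for tRNA-Trp-CCA-2-1, 0.51 (SE 0.24) for tRNA-Gly-CCC-chr1-135 and -0.12 (SE 0.25) for tRNA-Glu-TTC-5-1, none of them called.

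The HCT116 tables with CMC alone listed few tRNA positions. They hold fractional read numbers and the HCT116 tables with Terminator whole ones. Whether unlike counting of reads has a part in the gap was not tested. Of 20660 positions tested, 0.373% were called higher (1.22% of U), and 0 of 4 tRNA sequences were called by edgeR, with 0 at an unadjusted p under 0.05. TMM, which called 0.223% of all positions, and the test against covering reads, which called 1.65%, also called 0 of the 4. tRNA-Leu-TAG-3-1 U55 had too few stop reads to test, with 11% and 4.41% untreated and 21.8% and 22.8% treated. tRNA-Gly-CCC-chr1-135 U13, also untested, had 3.75% and 1.56% against 11.7% and 9.60%. Neither pair overlapped. Among the 4 tested, A37 of tRNA-Ala-CGC-4-1 had 60.1% and 59.2% against 81.8% and 69.7%, and A58 of tRNA-Gly-CCC-chr1-137 had 13.8% and 13.9% against 20.8% and 22.2%.

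HCT116 with CMC and Terminator gave the most tRNA data. Of 26153 positions tested, 26% were called higher, 20% of U and 29.5% of other bases. Of 114 tRNA sequences, 54 were called higher and 0 lower (0.0803% of all positions were lower): 31 of 55 U (56.4%) and 23 of 59 others (39%). The change over all positions had a median of log2 0.44, and that over the 55 tested tRNA U was 1.75. The latter was 0.54 over the 50 U tested in a fit of only the 2 tables of this comparison, and 0.88 over the 40 U tested without treated replicate 1. Most calls fell in 2 sets of places. The 31 tested U at places 13, 27, 32, 38, 39, 40 and 55 and in the unplaced set were all called, with log2 changes of 1.45 to 3.76 and a median of 2.23. Of 24 U at other places, among them the D-loop, 8, 16, 33 and 34, 0 were called, with a median of 0.14, though against covering reads 3 of these 24 were called, beside 25 of the 31. The second set was places 44 to 46, where 20 of 20 were called, with a median of 2.35. Of 23 A or G at 9, 26, 37 and 58, 1 was called, with a median of 0.09. These groups of places were formed after the values were seen. Treated and untreated stop percents did not overlap in 102 of the 114 tested sequences. Non-overlap at the places described below is therefore not particular to them. In 53 of the 54 calls both untreated libraries had under 10 stop reads, so the counts describe sequences that could enter the test only through treated libraries. TMM called 45 higher and 4 lower with 12.4% of all positions higher, and the test against covering reads called 47 with 24.9%. A fit of only the 2 tables of this comparison called 40 with 21.3%.

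**Figure D3:**
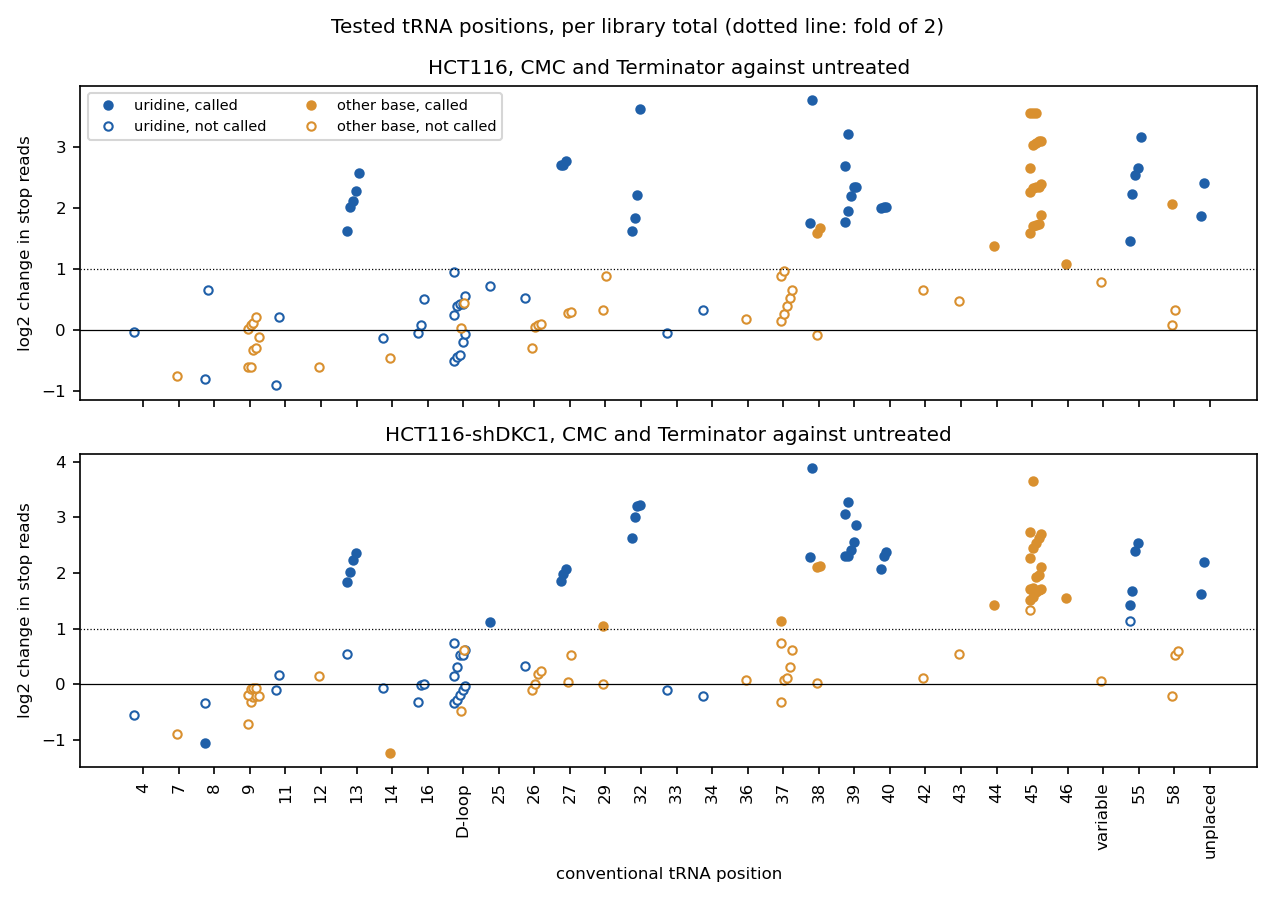
Log2 change in stop reads per library total (y axis) of the 114 tested tRNA sequences by conventional place (x axis) in HCT116 (top) and HCT116-shDKC1 (bottom), CMC and Terminator against untreated. Filled points were called, the dotted line marks a fold of 2; the uridines at 13, 27, 32, 39 and 55 and G45 lie above it in HCT116, and all points at 9, 16, 26 and the D-loop below.

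In the T-loop, 5 U55 sequences were tested. tRNA-Leu-TAG-1-1 had 2.38% and 3.77% untreated against 21.7% and 32.5%, a change of log2 3.16 (SE 0.43, edgeR adjusted p = 5.18e-05), with 3 stop reads against 23. tRNA-Gly-GCC-1-1 had 1.61% and 0.651% against 6.34% and 9.52%, a change of 2.65. tRNA-His-GTG-1-8 had 2.82% and 3.12% against 19.2% and 28.0%, a change of 2.54, and its position carries another gene's name in some tables. tRNA-Leu-TAG-3-1 had 9.09% and 4.84% against 36.8% and 32.5%, a change of 2.23. The groups did not overlap in these 4. tRNA-Ala-CGC-4-1 U55 was the exception, at 4.69% and 1.37% against 5.26% and 3.40%. Its percents overlapped, and its call at log2 1.45 was lost with TMM and against covering reads.

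In the D-arm, the 5 tested U13 were from tRNA-Glu, tRNA-Asp and tRNA-His, and were chosen for description after their values were seen. tRNA-Glu-CTC-1-1 had 2.47% and 2.93% against 17.1% and 19.2%, a change of log2 2.27 (SE 0.23, edgeR adjusted p = 6.61e-06). tRNA-Asp-GTC-2-1 had 3% and 3.77% against 21.3% and 18%, a change of 2.11. tRNA-His-GTG-1-1 reached the highest level, with 2.60% and 9.68% against 47.6% and 41.7%, on a smaller change of 1.63 (SE 0.40). All 5 were called and none overlapped. D-loop uridines, many of which are dihydrouridine, were not called in 11 of 11 on stop reads per library total. Against covering reads 2 of the 11 were called in HCT116 (median log2 0.69) and 5 in HCT116-shDKC1 (median 0.99). The largest D-loop U change per library total in HCT116 was at nucleotide 20 of tRNA-Glu-CTC-1-1, with 6.64% and 6.20% against 13.4% and 14.4%, at log2 0.95 (edgeR adjusted p = 9.40e-04), under a fold of 2.

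At place 27, where PUS1 acts, the 3 tested U were all from tRNA-Val-CAC genes. tRNA-Val-CAC-1-4 had 4.35% and 2.41% against 24.6% and 21.3%, a change of log2 2.69 (SE 0.37, edgeR adjusted p = 6.19e-05). Its relative tRNA-Val-CAC-3-1, named after its values were seen, had 5.88% and 6.90% against 59.1% and 62.5% with a similar change of 2.77. The treated stop reads were close, 14 and 13 for the first and 13 and 10 for the second, over 57 and 61 covering reads against 22 and 16, so these related windows may share reads.

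Across the anticodon arm, uridines at 32, 38, 39 and 40 were called in 16 of 16 tested. tRNA-Glu-TTC-2-1 U32 had 2.70% and 1.72% against 32.4% and 23.8%, from 2 stop reads to 22, a ratio of 13.8 (95% exact interval 3.40 to 121). The tRNA-Leu U32 sequences moved by less, with log2 2.21 for tRNA-Leu-TAG-2-1 and 1.84 for tRNA-Leu-AAG-2-1. U38 of tRNA-Ala-CGC-4-1 had the largest change of all, log2 3.76 (SE 0.37, edgeR adjusted p = 4.61e-06), from 4.17% and 1.20% to 21.3% and 20.9%. It lies next to A37, which stopped 58.6% and 57.8% of reads without treatment. U39, a PUS3 site, was highest in the serine tRNAs. tRNA-Ser-TGA-4-1 had 11.5% and 6.90% against 53.3% and 50% (log2 2.69, SE 0.38), and tRNA-Ser-AGA-1-1 had 18.2% and 8.33% against 78.9% and 69.2% (log2 3.20, SE 0.44). tRNA-Lys-CTT-2-2 had 3.57% and 4.27% against 24.6% and 22%, and tRNA-Leu-AAG-2-1 only 2.27% and 3.28% against 10.3% and 7.44%. No U39 pair overlapped. The 3 U40 calls, all in tRNA-Ala, were lost in the test against covering reads. C38 next to U39 was called in tRNA-Leu-TAG-2-1 (log2 1.59) and tRNA-Leu-AAG-2-1 (1.68) but not in tRNA-Asp-GTC-4-1 (-0.09), all 3 named after their values were seen.

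The base before place 46 was the non-uridine exception. All 18 tested G45 sequences were called, with log2 changes of 1.58 to 3.55 and a median of 2.37, from tRNAs for Ala, Asn, Cys, Ile, Lys, Met, Pro and Val and the initiator. tRNA-iMet-CAT-1-1 had 4.55% and 4.69% untreated against 47.6% and 35.0%, a change of 3.02 (SE 0.42, edgeR adjusted p = 6.40e-05). tRNA-Val-CAC-1-4 had 7.89% and 1.92% against 32.1% and 27.9%, a change of 3.09, and tRNA-Met-CAT-1-1 had 13.6% and 8.11% against 42.9% and 40.7%, a change of 2.39. tRNA-Pro-AGG-1-1 had 11.1% and 7.69% against 47.8% and 58.8%. It rests on 2 untreated and 21 treated stop reads, a ratio of 13.2 (95% exact interval 3.23 to 116), and the 2 other tRNA-Pro windows gave the same totals, so the 3 are not separate measurements. The smallest change was in tRNA-Ala-TGC-3-1, with 20.7% and 23.7% against 30.5% and 35.3%. TMM called 16 of the 18 and the test against covering reads 14. G46 of tRNA-iMet-CAT-1-1 was called too, at log2 1.08, from 14.3% and 12.5% to 24.1% and 26.4%.

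The letters at place 45 were uniform. In the whole series 58 sequences had this place, 57 of them with G, and the next base, place 46, was G in 55 (94.8%). The letters AGGT, with the reported base as the first G, stood in 34 (58.6%), as in the tRNA-Pro and tRNA-iMet windows above. Of 259 sequences with a reported G elsewhere, 33.2% had G next and 4.63% had AGGT so placed. This is a description of the windows, which place 45 itself partly fixes through conserved tRNA letters. Whether 7-methylguanosine has a part in these stops was not tested.

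Places with known blocking methylations carried strong stops that treatment moved little on this scale. A9 of tRNA-Asp-GTC-5-1 had 48.6% and 51.4% untreated against 63.6% and 81.0%, a change of log2 0.12 in stop reads. G9 of tRNA-iMet-CAT-1-1 had 20.8% and 25.3% against 37.8% and 43.6% (log2 0.21), and G26 of tRNA-Leu-TAG-2-1 had 30.6% and 36.5% against 32.6% and 38.2% (-0.30). All 3 changes were below the all-position median of 0.44. A9 had 22 and 21 covering reads in the treated libraries against 35 and 37 in the untreated ones. A37 of tRNA-Ala-CGC-4-1 had 58.6% and 57.8% against 77.6% and 73.0%, at log2 0.89 (SE 0.15, edgeR adjusted p = 2.57e-04), under a fold of 2. A58 was called in 1 of 3, tRNA-Ile-AAT-4-1, from 15.2% and 10.0% to 46.4% and 37.9% (log2 2.06, SE 0.40). A58 of tRNA-Gly-CCC-chr1-137 had 9.47% and 9.16% against 23.1% and 9.84% (log2 0.32). Among sequences with at least 20 covering reads, the highest treated stop percents in HCT116 with Terminator were at a uridine, U33 of tRNA-Asp. tRNA-Asp-GTC-4-1 averaged 92.0% (SD 0.453) against 78.8% (SD 6.40), and tRNA-Asp-GTC-3-1 84.0% (SD 3.15) against 80.0% (SD 2.37), n = 2 each. Neither was listed in all 4 tables of the test.

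For the knockdown, DKC1 itself could not be checked well. It had 2 and 3 listed positions in the HCT116 tables with Terminator, with 24 and 45 untreated covering reads in all, and 2 and 1 in HCT116-shDKC1, with 11 and 2. These are sums over whichever positions were listed, and no DKC1 position was in all 4 tables, so no test was made. Of 18 genes for pseudouridine synthases and box H/ACA proteins, 1 had enough reads for a test of untreated covering reads: NHP2, an H/ACA core protein, at log2 0.19 (SE 0.30, edgeR adjusted p = 0.910), where 0.59% of 2372 genes were called. PUS1, PUS3, PUS7, PUS10 and TRUB1 had no position in all 4 tables. Of 214 tRNA gene names, 0 were called in that test, with 7 at an unadjusted p under 0.05 (8 lower with the replicate block, 0 with DESeq2) and a median of -0.13. In bulk RNA, fewer cells with an RNA and less of it per cell cannot be told apart.

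In HCT116-shDKC1, CMC and Terminator gave a similar list. Of all positions 24.3% were called higher (17.9% of U) and 0.18% lower, and of the 114 tRNA sequences 53 were called higher and 2 lower. The calls shared with HCT116 numbered 50, which is 92.6% of the HCT116 calls and 94.3% of the knockdown calls. Over all positions 5482 calls were shared, 80.6% of the HCT116 calls and 86.1% of the knockdown calls, and the difference between tRNA and the rest was not tested. The comparisons have no library in common, but both lists come from 1 fit limited to positions listed in all 4 tables. That choice favours sharing. Fits of only their own 2 tables called 40 of 122 tRNA sequences higher in HCT116 and 27 of 107 in the knockdown, beside 21.3% and 21% of all positions. Of the 31 U at 13, 27, 32, 38, 39, 40, 55 and unplaced, 29 were called, with a median of log2 2.31, and 26 against covering reads. Of the 24 U at other places 1 was called higher, and 10 against covering reads. tRNA-Glu-CTC-1-1 U13 had 2.85% and 1.96% untreated against 20.5% and 19.0% (log2 2.36). tRNA-Val-CAC-1-4 U27 had 2.70% and 4.05% against 18.4% and 25.7% (1.85), and tRNA-Glu-TTC-2-1 U32 had 2.63% and 6.06% against 29.7% and 31.2% (3.23). U38 of tRNA-Ala-CGC-4-1 had 3.33% and 1.64% against 22% and 16% (3.88), and U39 of tRNA-Ser-TGA-4-1 had 8% and 4.55% against 50% and 46.4% (3.06). No pair overlapped in these 5, as in 100 of the 114 tested in the knockdown.

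The 2 sequences called lower were U8 of tRNA-Asp-GTC-2-1, at -1.05, and A14 of tRNA-Gly-GCC-3-1, at -1.23. Both were below on stop reads per library total although their stop percents were listed as higher, and neither kept its direction against covering reads, where U8 was at 0.22 and A14 at 0.13. TMM called 37 of the 114 higher and 4 lower. G45 was called in 17 of 18, with a median of log2 1.95 against 2.37 in HCT116, and in 13 with TMM, which called 11.8% of all positions, and 9 against covering reads, which called 19.7%. tRNA-iMet-CAT-1-1 G45 had 2.27% and 9.09% untreated against 51.9% and 33.3% (2.70). tRNA-Pro-AGG-1-1 G45 had 36.4% and 18.2% against 43.5% and 38.9% (1.72), where the untreated level was above that of HCT116.

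The 4 calls of HCT116 that were not called in the knockdown were U55 of tRNA-Leu-TAG-1-1, U13 of tRNA-His-GTG-1-1, G45 of tRNA-Ile-AAT-5-2 and A58 of tRNA-Ile-AAT-4-1. tRNA-Leu-TAG-1-1 U55 had 12.5% and 8.57% untreated and 21.1% and 24.1% treated in the knockdown, at log2 1.13 (SE 0.38, edgeR adjusted p = 0.117). The treated levels overlap those of HCT116 (21.7% and 32.5%), and the untreated ones are above its 2.38% and 3.77%. tRNA-His-GTG-1-1 U13 had 5.97% and 5.97% against 35.7% and 22.7%, at 0.55 (SE 0.47, edgeR adjusted p = 0.545). Against covering reads this U13 was called in the knockdown, as were all 5 tested U13 and 19.7% of all positions. A58 of tRNA-Ile-AAT-4-1 was not called on that scale either. The sequences in such small counts were named after their values were seen. The 3 called in the knockdown and not in HCT116 were U25 of tRNA-Glu-CTC-1-1, C29 of tRNA-Gly-GCC-1-1 and A37 of tRNA-Ala-CGC-4-1, at 1.05 to 1.14.

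The difference between the cell populations was tested itself, as an interaction of treatment and knockdown. It was called at 0 of 26153 positions by edgeR (0% higher, 0% lower), as it was with TMM and DESeq2, and at 3, all lower, against covering reads. Leaving out untreated or treated replicate 2 of HCT116-shDKC1 gave 17 positions called lower in each case, with 0 tRNA sequences among those tested. Without adjustment, edgeR gave p under 0.05 at 88 positions in the higher direction and 272 in the lower. Of the 114 tRNA sequences 0 were called, and 1 had an unadjusted p under 0.05, tRNA-Leu-TAG-1-1 U55 at -2.03 (SE 0.63, edgeR adjusted p = 1.00). The median interaction was 0.06 over the 31 U and -0.22 over places 44 to 46. Next to it in size were -1.83 (SE 0.70) for tRNA-Pro-AGG-1-1 G45, which the other tRNA-Pro windows repeat, and -1.46 (SE 0.61) for A58 of tRNA-Ile-AAT-4-1. The largest in the other direction was 1.37 (SE 0.58) for tRNA-Leu-AAG-2-1 U32, where the untreated levels were 9.26% and 6.49% in HCT116 and 2.33% and 3.17% in the knockdown. The standard error of the interaction had a median of 0.48 over the 114 (range 0.21 to 0.85), so a 2-fold difference was about 2 standard errors for the median sequence.

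**Figure D4:**
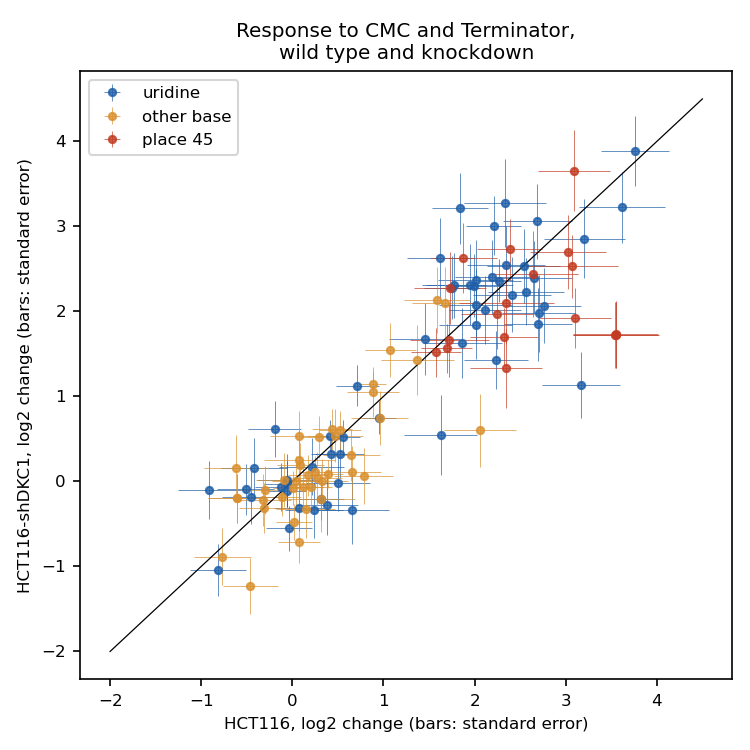
Log2 change with CMC and Terminator in HCT116 (x axis) and HCT116-shDKC1 (y axis) for the 114 tested tRNA sequences, with standard errors as bars and the line of equal change. Uridine, place 45 and other bases are coloured apart; tRNA-Leu-TAG-1-1 U55, at 3.16 and 1.13, is among the points farthest below the line, and the difference was called for none.

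The tables of HEK293T and HCT116 were made separately, and 39 sequences had at least 20 covering reads in all 4 libraries of both Terminator comparisons, so levels are given side by side with no test. tRNA-Gly-CCC-chr1-135 U55 averaged 20.7% (SD 2.52) against 3.92% untreated in HEK293T and 19.0% (SD 1.45) against 2.70% in HCT116. tRNA-Glu-TTC-2-1 U32 averaged 16.3% (SD 1.1) in HEK293T, 28.1% (SD 6.10) in HCT116 and 30.5% (SD 1.07) in HCT116-shDKC1. tRNA-Lys-CTT-2-2 U39 averaged 25.1% (SD 9.92), 23.3% and 27.4%. tRNA-Ala-TGC-4-1 G45 averaged 21.7% (SD 1.72) treated and 10.4% untreated in HEK293T, 44.3% (SD 1.38) and 12.5% in HCT116, and 40.4% and 16.7% in the knockdown. tRNA-Ala-CGC-4-1 A37 was high throughout, with untreated means of 55.7%, 58.2% and 61.7%.

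The libraries held 8.65 to 31.3 M reads by the totals behind the tables' own RPM values. HCT116 with CMC alone was shallowest, and its tables give the untreated libraries totals of 8.94 and 10.2 M reads against 27.3 and 31.3 M reads in the Terminator tables. The HCT116 and HCT116-shDKC1 tables listed 290 to 422 positions of the epithelial keratin KRT8 and none of vimentin (VIM), which had 369 to 459 in HEK293T, where KRT8 had none. No listed position named CDH17, TSPAN8 or CRABP1 in any table. The other HEK293T markers looked at were not informative. LIN28B, NEFL and NEFM had at most 3 listed positions in a HEK293T table, and PAX2 had only 1 position, in HCT116-shDKC1. Of the epithelial markers, CDH1 and ELF3 had at most 6 in a table.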

How the data were processed

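RNA fragments from the 16 libraries were aligned to hg38 with STAR after trimming with cutadapt 2.8, per the submitters' processing notes. The 10 deposited tables give, per position, whole counts of stop and covering reads (HCT116 and HCT116-shDKC1 with Terminator) or fractional ones, which the authors' tables do not explain and which were used as estimated counts rounded to whole numbers. They also give RPM values, deposited by the authors beside the counts, from which each library total was recovered (8.65 to 31.3 M reads). No counting tool is given in the sources used here.

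Members, places and gene lists were chosen with earlier results of these data known. Stop reads were fitted with edgeR 4.0.16 (R 4.3.3) quasi-likelihood tests, with library totals, a replicate block within each cell population, at least 10 stop reads in 2 libraries, and only positions listed in every table of the fit. p-values were Benjamini-Hochberg adjusted over all positions. The series' design text pairs treated and untreated samples in each replicate, and deviations of same-numbered libraries correlated at 0.215 to 0.587 within a population. Those of HCT116 and HCT116-shDKC1 also correlated across the populations, at 0.130 to 0.336, which the block does not model. The untreated columns of the HCT116 tables without Terminator were assigned by title. Copies were represented by the one in most tables. Alternatives were TMM, covering reads as offset, DESeq2 1.42.0, no filter, no replicate block, leaving out each library, a 10-read coverage minimum, and, added after seeing the data, only the 2 tables of a comparison. On simulated data with 200 changed positions, the HCT116 Terminator fit recovered 94% of 4-fold and 32% of 2-fold changes. Recovery there meant an adjusted p under 0.05 without the fold minimum. The simulated counts had a fixed spread, no replicate effect and the mean levels of all tested positions. These rates therefore do not give the power for tRNA sequences with few untreated stop reads.

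Named positions were those called, up to 10 per comparison by size, tested U in the T-loop or anticodon loop, the 10 highest stop percents per group, and positions listed in all 3 cell populations (162 in all); others are named where stated. The counts carry no molecular identifiers, so the exact 95% intervals cover counting error only.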

Additional observations from a re-analysis of the deposited data

How the results depend on the processing

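The alternatives that could test them kept the direction of every called tRNA sequence but the 2 called lower in the knockdown. Against covering reads A14 of tRNA-Gly-GCC-3-1 went from -1.23 to 0.131986 and U8 of tRNA-Asp-GTC-2-1 from -1.05 to 0.222425. Counts of called sequences moved more, and the cause was not tested. HCT116 with Terminator gave 54, then 96 with no low-count filter (193 tested) and 40 in a fit of its own 2 tables. Over all positions 6798 of 26153, 7735 of 30328 and 7540 of 35411 were called higher. Fewer tRNA sequences were called when 1 library of a compared group was left out, which leaves 1 in that group. The median tRNA change was then log2 0.48 without treated replicate 1 and 0.95 without untreated replicate 1. Over all positions these medians were 0.42 and 0.45. DESeq2 gave an adjusted p to 17 of the 114, of which it called 1, and called 1805 of 26153 positions higher. The knockdown gave 55 in both directions, then 87 with no filter, 29 in a fit of its own 2 tables and 25 to 55 when 1 library was left out (27 and 32 without its untreated replicates 1 and 2, 25 and 28 without the treated ones). DESeq2 gave an adjusted p to 14 and called 1. HEK293T with Terminator gave 8, then 4 with TMM and 3 to 8 when 1 library was left out (4 without untreated replicate 1, 5 without replicate 2, 3 without either Terminator replicate), 12 with no filter. Terminator against CMC gave 2, then 0 with TMM and 0 against covering reads, beside 3492, 121 and 133 of 14825 positions called higher. Without CMC replicate 1 the smaller of those 2 changes was log2 0.58. Without Terminator replicate 1 only 1 of them was still tested, at 0.47. HEK293T with CMC gave 0, and 1 against covering reads, beside 66 and 208 of 14825 positions. DESeq2 gave no adjusted p for tRNA in HEK293T or in HCT116 with CMC alone. Without the replicate block the counts were 53 in HCT116, 53 in the knockdown, 8 and 2 in HEK293T and 0 elsewhere. Of all positions 6703 and 6313 of 26153 were then called higher in HCT116 and the knockdown, and 5033 and 3340 of 14825 in HEK293T. With at least 10 covering reads the median treated stop percents were 22.2222 (U) and 19.1808 (other) in HCT116, 20.9821 and 20.4762 in the knockdown, 25.8228 and 26.2584 in HCT116 with CMC alone, and, for other bases, 20.489 in HEK293T with Terminator and 19.1967 with CMC alone. Low untreated stop reads limit every ratio.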
